A study of Rattus norvegicus with 10 samples.

Results

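The first 6 Mb of rat chromosome 20 hold the major histocompatibility complex (MHC), called RT1 in the rat. The interval was defined by position alone, as all regions of the methyl-capture count table that lie on chromosome 20 of the genome RN4 and end at or before position 6000000. It comprised 1648 of the 574544 regions of the table, the first starting at position 859 and the last ending at position 5991892, and 14601 further regions lay on the rest of chromosome 20. The rule used no measured value.

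The values come from the amygdala stimulation model of epilepsy, in which current pulses through an electrode in the left lateral amygdala start status epilepticus (SE), which is later stopped with diazepam. The control group was sham operated, with electrodes in place but no pulses and at the same age as the SE group, and all animals were male Sprague-Dawley rats. Tissue with the CA3 field and the dentate gyrus was taken from the left hippocampus 3 months after SE, and each library came from 1 rat. Control rats 1, 3, 4 and 5 were compared with SE rats 6, 8, 9 and 10, while control rat 2 and SE rat 7, which the labels mark as discarded, are given beside them where they bear on a value. The 8 libraries held between 5499370 and 7179519 tags, of which between 18817 and 29091 lay in the interval. The discarded libraries held 7154696 tags (rat 2) and 14655629 tags (rat 7). The tissue is a mixture of cell types, so a difference in capture and a difference in the share of a cell type cannot be told apart.

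In methyl-capture, fragments of DNA are pulled down by a protein that binds methylated CpG sites and are then sequenced. A higher tag count therefore stands for more captured methylated DNA, which depends on the number of CpG sites as well as on how many of them are methylated, and not for the methylation level of a single cytosine. Regions captured more in SE rats are called hypermethylated and regions captured less are called hypomethylated.

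The MHC is a dense cluster of immune genes. Class I genes encode the molecules that present peptides from inside the cell to cytotoxic T cells, class II genes encode those that present peptides taken up from outside to helper T cells, and the class III genes between them include complement components and the cytokine tumour necrosis factor. In the brain, class II genes are best known from microglia, and the complex as a whole is known for multigene families whose members are close to identical in sequence and whose number differs between haplotypes. In the current RefSeq annotation of the GRCr8 assembly, used here for names and order only, 67 genes of chromosome 20 carry an RT1 symbol. Along that chromosome the order runs from Gabbr1, a subunit of the GABA-B receptor, and the myelin gene Mog through RT1-M10-1 and RT1-CE1 of class I to Tnf and the complement genes C4a and C4b, then to the class II genes RT1-Da and RT1-Bb, the peptide transporter Tap1, the class I genes RT1-A2 and RT1-A1 and the class I assembly factor Tapbp. No annotation of RN4 was used, so the regions below are given by position and are not placed in exons, introns or promoters. Among the names that the study gives to positions within the interval, Stk19, Cyp21a1, C4b, Atf6b, Agpat1 and Egfl8 of the class III stretch all belong to a single position. Another position is named for Tesb, now Tsbp1, which RefSeq places between C4b and RT1-Da.

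Regions of the interval were wider and somewhat more often above the count filter than regions elsewhere. Their median length was 525 bp, against 479 bp on the rest of chromosome 20 and 457 bp over the table, and 31 of the 1648 regions, or 1.88%, were 2 kb or longer, against 0.514% and 0.337%. Of the 1648 regions, 964 (58.5%) reached the summed count of 70 over the 8 libraries that was required for testing, against 53.5% on the rest of chromosome 20 and 50.8% of the table. The 964 tested regions had a median of 14 tags per library and the 684 others a median of 6.25. Regions lay no closer together than on the rest of the chromosome, with a median of 42 against 43 other regions no more than 50 kb away.

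Summed over all regions, the interval gave slightly more tags per kb than the rest of the chromosome in most rats. The ratio of tags per kb in the interval to tags per kb on the rest of chromosome 20 was 1.10 in rat 1, 0.994 in rat 3, 1.00 in rat 4, 0.973 in rat 5, 1.07 in rat 6, 1.12 in rat 8, 1.05 in rat 9 and 1.14 in rat 10. It was above 1 in 6 of 8 rats, in rat 4 by very little, and below 1 in rats 3 and 5, and its geometric mean was 1.06. An exact two-sided sign-flip test over the 8 rats gave p = 0.0547, where the smallest p it can give is 0.00781. The ratio did not rest on typical regions, since the log2 ratio of the median tags per kb was -0.0016 (exact sign-flip p = 0.953).

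The share of a library's tags that fell in the interval was higher in most SE rats than in most control rats. It was 0.386% in control rat 1, 0.342% in rat 3, 0.342% in rat 4 and 0.333% in rat 5, and 0.378% in SE rat 6, 0.390% in rat 8, 0.375% in rat 9 and 0.405% in rat 10. Control rat 1 lay among the SE rats, and the other 3 control rats lay below all of them. The means were 0.351% ± 0.0239 in the control group and 0.387% ± 0.0138 in the SE group (SD, n = 4 each), a difference that an exact two-sided permutation test over rats placed at p = 0.0857, also 0.0857 after adjustment over the 2 measures of this kind, with 0.0286 the smallest p that 4 against 4 can reach. The same order held against the rest of the chromosome, with 13.7 ± 0.781 interval tags per 100 tags on the rest of chromosome 20 in control rats and 14.7 ± 0.554 in SE rats (SD, n = 4 each, exact permutation p = 0.0857, adjusted p = 0.0857). With the discarded rats 2 and 7 included, the difference in that ratio shrank from 1.07 to 0.215 (exact permutation p = 0.762). The share of tags on the rest of chromosome 20, not part of that adjustment, was also higher in SE rats. It was 2.63% ± 0.0241 against 2.56% ± 0.0283 in control rats (SD, n = 4 each, exact permutation p = 0.0571, and 0.0159 with all 10 libraries). Relative to the control mean it was higher by 2.41%, and the share of the interval by 10.4%.

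**Figure D1:**
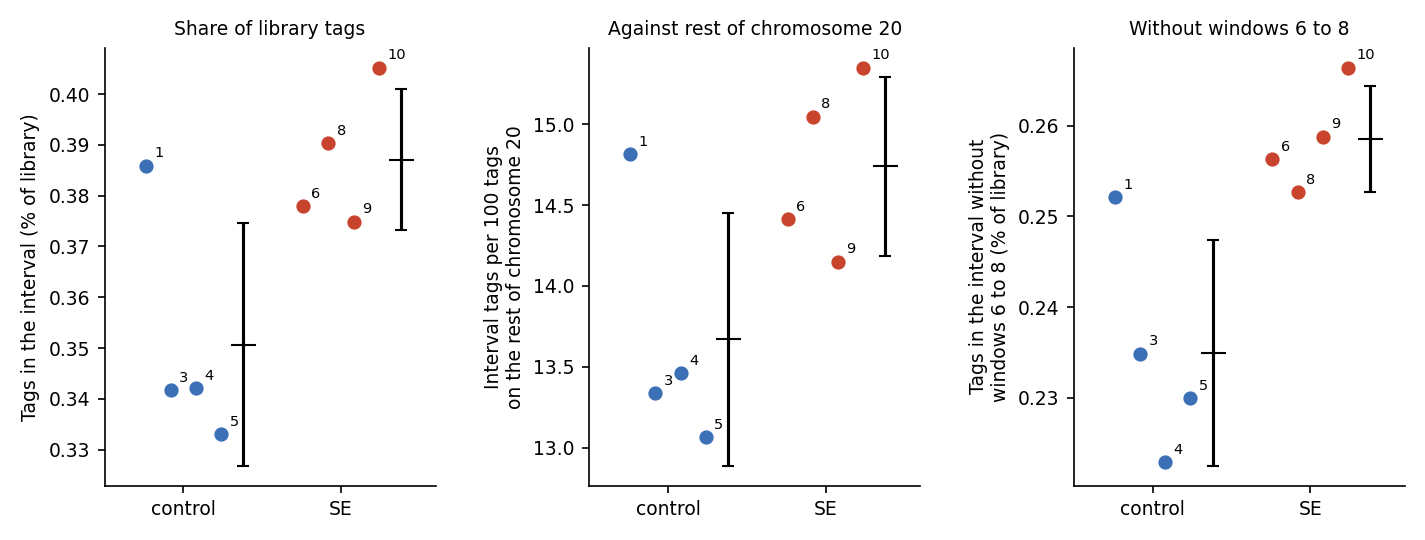
Share of each library's tags in the interval (left, in percent), interval tags per 100 tags on the rest of chromosome 20 (middle) and the share without windows 6 to 8, the stretch from 2.5 to 4 Mb (right), for each control and SE rat. Points are rats with their numbers, and the bars give the mean and SD of 4 rats, with axes that do not start at 0. Control rat 1 lies among the SE rats in the left and middle plots and just below them in the right plot.

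Counted in 12 windows of 500 kb, with each region placed by its midpoint, the difference between groups had both signs. SE rats had the lower mean in windows 1 to 3, between the start of the chromosome and 1.5 Mb, and the higher mean in the other 9. In window 2, from 0.5 to 1 Mb, control rats 1, 3, 4 and 5 had 69.8, 73.8, 75.8 and 73.0 tags per 1000000 tags of the library and SE rats 6, 8, 9 and 10 had 64.8, 68.7, 66.5 and 63.0. In window 12, from 5.5 to 6 Mb, the control rats had 490.3, 448, 436 and 416 and the SE rats had 519.8, 507, 520.3 and 526. In both windows the groups did not overlap, and the same was true of window 10, from 4.5 to 5 Mb, where the highest control rat (440.2) and the lowest SE rat (440.8) were close to each other.

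Each of these 3 windows gave the smallest exact permutation p that 4 against 4 rats allow, 0.0286, and an adjusted p over the 12 windows of 0.114, so that none of the 12 was below 0.05 after adjustment. With that smallest p, a few separated windows could not have passed the adjustment, so it decides little about single windows. With the discarded rats included, windows 2, 10 and 12 gave exact permutation p values of 0.246, 0.135 and 0.0952. In windows of 1 Mb, 0 of 6 had a p below 0.05, and in windows of 250 kb 5 of 24 had.

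**Figure D2:**
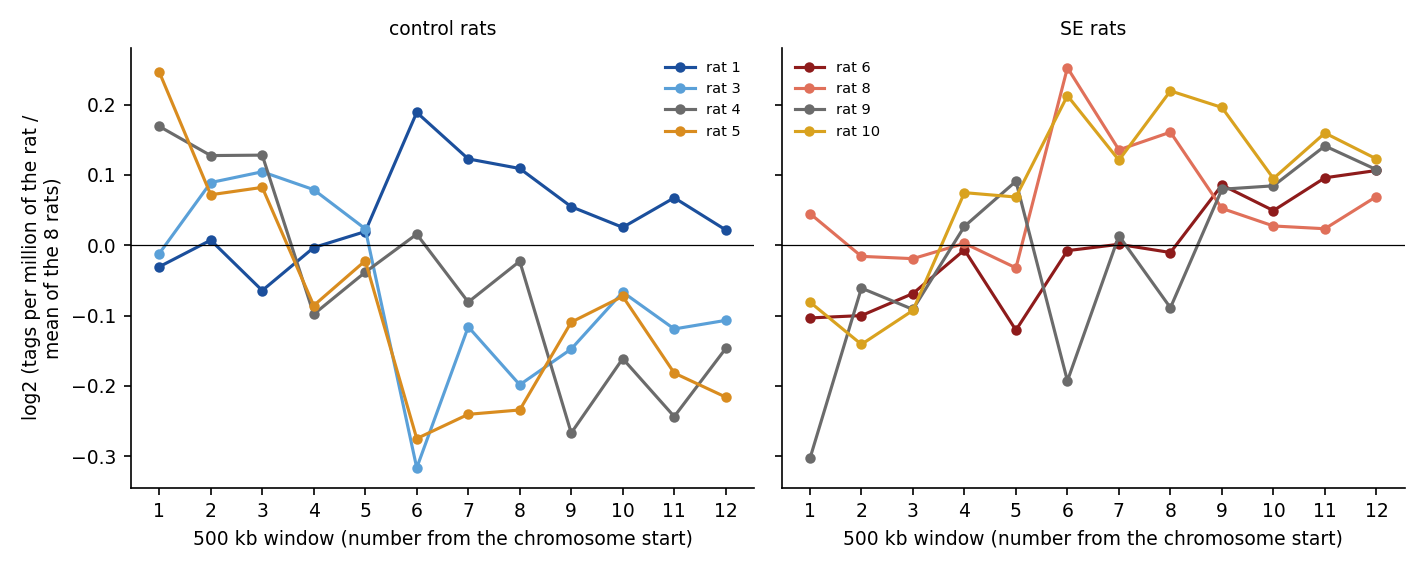
For each rat, the log2 ratio of its share of tags in a 500 kb window to the mean of the 8 rats (vertical axis), by window number from the chromosome start (horizontal axis), with control rats on the left and SE rats on the right. The line of control rat 1 runs above 0 from window 6 on, whereas rats 3, 5 and 9 dip in window 6, where they had 216, 223 and 236 tags per 1000000 against 307 in rat 1, 272 in rat 4, 268 in rat 6, 321 in rat 8 and 312 in rat 10.

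In window 6 the spread within each group was wider than in any other window of the interval. Its coefficient of variation was 16.9% among control rats and 14.0% among SE rats, against 2.12% to 11.2% and 1.57% to 9.94% in the other 11 windows. Because single rats stood apart between 2.5 and 4 Mb, the share of tags was also computed without windows 6 to 8, a choice made after the values were seen. Over the 1223 regions left, the share was 0.235% ± 0.0124 in control rats and 0.259% ± 0.00582 in SE rats (SD, n = 4 each). The 2 groups no longer overlapped, but by little, with control rat 1 at 0.2521% and SE rat 8 at 0.2527% (exact permutation p = 0.0286), and with the discarded rats included p was 0.0873.

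Region by region, few differences between SE and control rats passed the threshold of the study, p below 0.01 before adjustment, in the quasi-likelihood test of edgeR, and in the 8 libraries used the interval had proportionally more of them upward than the table. Hypermethylated regions numbered 14 of 964 tested (1.45%), against 0.584% of all 291987 tested regions and 44 of 7812 (0.563%) on the rest of chromosome 20. Hypomethylated regions numbered 4 (0.415%), against 1.07% of all tested regions and 0.845% on the rest of chromosome 20. Once p values were adjusted over the table by the Benjamini-Hochberg method, 0 of the 964 regions stayed below 0.05 with edgeR, against 0.00616% of all tested regions, while 76 (7.88%) were below 0.05 before adjustment, against 6.9% of all tested regions. The exact test of edgeR and the Wald test of DESeq2 also gave 0 after adjustment, with 65 (6.74%) and 35 (3.63%) regions below 0.05 before it, against 5.92% and 3.16% of the table. These shares lay close to those of the table.

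Counted by rats alone, 35 of the 964 regions (3.63%) had every SE rat above every control rat, against 1.69% of all tested regions and 2.06% on the rest of chromosome 20. The opposite order was found in 10 (1.04%), against 1.94% and 1.63%. These shares describe the interval and were not tested, since neighbouring regions of the same rats are not replicates.

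Most tested regions of the interval had fold changes slightly above 0. The median log2 fold change of SE over control was 0.14 over the 964 regions, of which 633 (65.7%) were above 0, against a median of 0.04 with 54.8% above 0 on the rest of chromosome 20 and a median of 0.00 with 50.3% above 0 in the table. The median changed along the interval. It was -0.20 below 1.5 Mb, where 22 of 82 regions were above 0, and 0.03 from 1.5 to 2.5 Mb (43 of 78). It was 0.14 from 2.5 to 4 Mb (184 of 267) and 0.18 from 4 to 6 Mb (384 of 537).

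The number of neighbouring regions moved with these values. The median number of regions within 50 kb, called local density here, was 13, 30, 34 and 49 in these 4 stretches. Off chromosome 20, the slope of a library's log2 level on local density ranged from -0.109 to 0.0221 in the 4 control rats and from 0.0213 to 0.0859 in the 4 SE rats (exact permutation p = 0.0571). Control rat 1, at 0.0221, was just above SE rat 8, at 0.0213, and below the other SE rats. Whether the slope bears on the share of tags in the interval was not tested. The discarded rats had slopes of 0.0840 (control rat 2) and 0.691 (SE rat 7), the latter far above that of every other rat.

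Within classes of local density the interval kept higher medians than the rest of its chromosome. For regions with fewer than 20 neighbours the median log2 fold change was -0.08 in the interval (122 regions) and -0.23 on the rest of chromosome 20 (849 regions). For 20 to 34 neighbours it was 0.08 (186 regions) and -0.03 (1393 regions), for 35 to 49 it was 0.18 (373 regions) and 0.07 (2959 regions), and for 50 or more it was 0.18 (283 regions) and 0.11 (2611 regions). Offsets that removed each library's trends on local density and on mean count were a setting added after the data were seen. With them the median was 0.10 in the interval and 0.01 on the rest of chromosome 20. The calls fell to 7 hypermethylated (0.726%, against 0.563% of the table and 0.41% on the rest of chromosome 20). Hypomethylated calls fell to 1 (0.104%, against 0.673% and 0.563%). The share of hypermethylated calls thus came near that of the table but stayed above that of the rest of chromosome 20. With all 10 libraries the 2 medians were alike, 0.085 in the interval and 0.082 on the rest of the chromosome, with 2 hypermethylated calls (0.201%, against 0.282% of the table) and 1 hypomethylated call (0.101%, against 0.215%), so that the share of hypermethylated calls lay below that of the table. This setting includes SE rat 7, the library with the most tags and the steepest density slope. It had no tags in 113 regions of the interval, against 4 to 20 regions in each other rat. How much of the change rests on rat 7 was not tested.

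**Figure D3:**
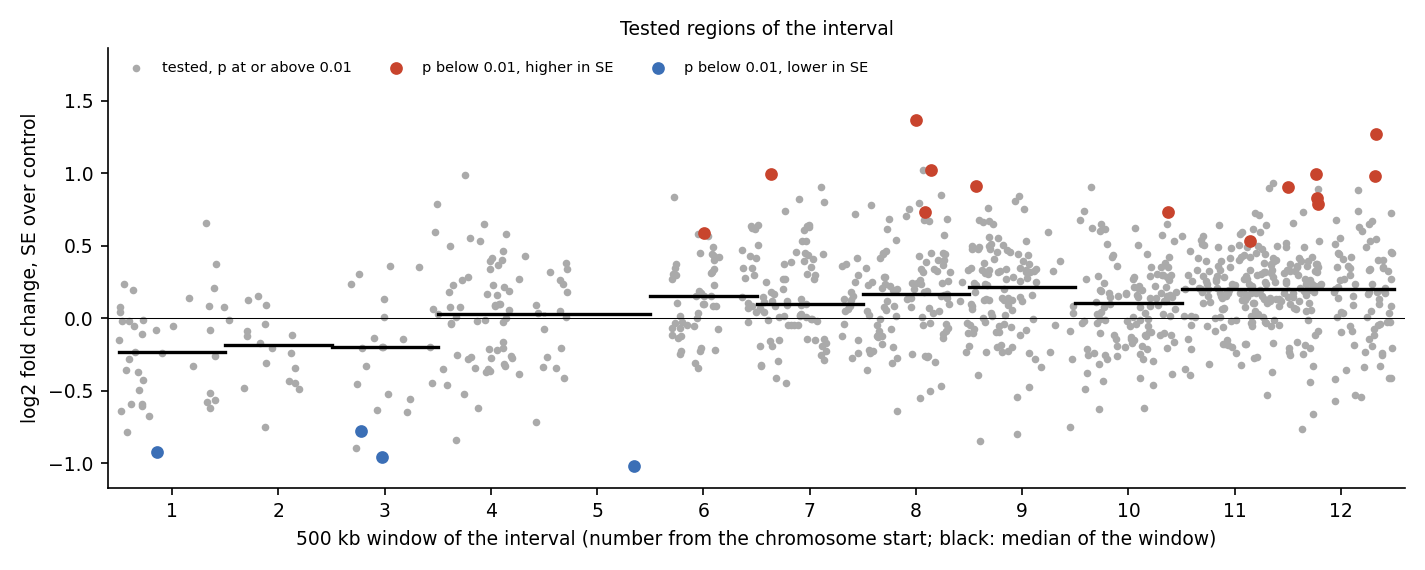
Fitted log2 fold change of SE over control (vertical axis) for the 964 tested regions of the interval, placed by 500 kb window from the chromosome start (horizontal axis). Grey points had p at or above 0.01, red and blue points are the 14 hypermethylated and 4 hypomethylated regions, and black bars are window medians, which lie below 0 in windows 1 to 3 and above 0 in the others.

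The 14 hypermethylated regions lay toward the far end of the interval. All were above 2.7 Mb, 12 were above 3.7 Mb and 7 above 5 Mb, where 305 of the 964 tested regions lay. Most tested regions lay toward that end too, with 160 below 2.5 Mb, 267 from 2.5 to 4 Mb and 537 from 4 Mb on. Their log2 fold changes ranged from 0.53 to 1.37, and in 8 of the 14 the groups did not overlap. The regions were called from these same values, so this is no further support for them. Over all 18 called regions the adjusted p of edgeR ranged from 0.448 to 0.604, so none of them stands beyond the number of tests made.

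The smallest p of the interval belonged to chr20:5632932-5633957, a region of 1025 bp. Its normalized counts, in tags per 1000000 tags of tested regions (CPM) after TMM scaling, were 2.90, 2.97, 2.85 and 3.31 in control rats 1, 3, 4 and 5 and 6.01, 5.04, 7.48 and 5.73 in SE rats 6, 8, 9 and 10. The control rats were close to each other and all below the lowest SE rat. The means were 3.01 ± 0.208 and 6.07 ± 1.03 (SD, n = 4 each), with a log2 fold change of 1.00 (standard error 0.28, edgeR adjusted p = 0.448). The call was kept in each of the 8 fits that left out 1 rat. The discarded rats had 5.90 (control rat 2) and 5.56 (SE rat 7), both among the SE rats, and with all 10 libraries the log2 fold change was 0.64 and the call was lost (edgeR adjusted p = 0.914).

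Another pair of the called regions lay within 10 kb of it. At chr20:5637972-5638713 the control rats had 4.84, 3.71, 4.66 and 2.90 and the SE rats 11.1, 5.52, 5.55 and 6.30, with rat 6 well above the others (log2 fold change 0.83, standard error 0.26, edgeR adjusted p = 0.523). The call was lost without SE rat 6, where the log2 fold change was 0.54, and without control rat 5, where it was 0.69, and by a small margin with DESeq2. With all 10 libraries it was 0.34 and the call was lost, control rat 2 having 6.09 and SE rat 7 having 0.96. At chr20:5641504-5642641 the control rats had 4.11, 3.95, 3.62 and 4.76 and the SE rats 6.71, 5.52, 7.0 and 9.17, again with no overlap (log2 fold change 0.79, standard error 0.25, edgeR adjusted p = 0.526), and the call was lost without SE rat 10, where the log2 fold change was 0.63. Of the 38 regions from position 5600327 to position 5656176, 25 were tested and 19 of these had a log2 fold change above 0. That share was similar in window 12 as a whole, from 5.5 to 6 Mb, with 105 of 144 tested regions above 0. The 3 called regions were the ones where no SE rat lay within the range of the control rats. Over the interval, 35 of 964 tested regions had every SE rat above every control rat. The stretch was singled out around the called regions after their values were seen, so these counts do not show a local cluster.

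The highest log2 fold change among the calls was at chr20:3751855-3752377, a region with few tags. Its normalized counts were 1.69, 1.73, 1.55 and 0.41 in control rats 1, 3, 4 and 5 and 2.54, 3.84, 4.59 and 2.87 in SE rats 6, 8, 9 and 10, from 2 to 19 tags per library. The log2 fold change was 1.37 (standard error 0.40, edgeR adjusted p = 0.488), and without control rat 5, the lowest of its group, it was 1.04 and no longer past the threshold. The discarded rats had 1.71 (control rat 2) and 0 (SE rat 7), the latter below every control rat. With all 10 libraries the region was not among those tested.

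At chr20:4031351-4032407 the control rats had 2.66, 2.22, 3.62 and 3.10 and the SE rats 4.62, 4.80, 6.52 and 5.92 (log2 fold change 0.91, standard error 0.29, edgeR adjusted p = 0.533) and the call was lost by a small margin without control rat 3, where the log2 fold change was 0.81, and also with all 10 libraries, where it was 0.73. The longest called region, chr20:5322634-5325875 with 3241 bp, had 13.5, 11.9, 7.76 and 11.6 in control rats and 14.8, 15.6, 16.9 and 17.6 in SE rats. Every SE rat was above every control rat there, although rat 1 came close to rat 6 (log2 fold change 0.53, standard error 0.18, edgeR adjusted p = 0.542). The call was lost without control rat 4, with a log2 fold change of 0.40, without SE rat 10, with 0.49, with all 10 libraries, with 0.38, and with the density and count offsets, with 0.45.

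In the last pair of hypermethylated regions among the 10 smallest p values the groups overlapped. At chr20:5916992-5917584 the control rats had 1.21, 2.22, 0.52 and 0.83 and the SE rats 1.39, 4.56, 2.41 and 3.25 (log2 fold change 1.27, standard error 0.43, edgeR adjusted p = 0.547). The call was lost without control rat 4 (log2 fold change 1.04) or control rat 5 (1.12), with DESeq2 (1.29) and with all 10 libraries (0.87). With a mean of 9 tags per library the region was near the count filter. Without SE rat 8 or SE rat 10, its highest SE rats, it was not among the tested regions. At chr20:5500062-5500765 the control rats had 1.69, 2.72, 3.10 and 2.48 and the SE rats 5.78, 4.08, 6.28 and 2.87 (log2 fold change 0.91, standard error 0.32, edgeR adjusted p = 0.572). This call was lost without control rat 1 (log2 fold change 0.77), control rat 5 (0.91), SE rat 6 (0.79) or SE rat 9 (0.75), with DESeq2 (0.92), with all 10 libraries (0.53) and with the density and count offsets (0.83).

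The 4 hypomethylated regions all lay below 2.5 Mb, with log2 fold changes between -1.02 and -0.78. In 3 of the 4 the groups did not overlap, which again follows in part from calling them on these same values. At chr20:1238586-1239097 the control rats had 3.87, 5.93, 5.17 and 3.93 and the SE rats 1.62, 2.40, 2.66 and 2.87 (log2 fold change -0.96, standard error 0.32, edgeR adjusted p = 0.539). At chr20:178228-178824 the control rats had 4.35, 3.95, 3.62 and 5.79 and the SE rats 2.31, 2.88, 1.69 and 2.48 (log2 fold change -0.92, standard error 0.32, edgeR adjusted p = 0.570). All control rats were above all SE rats in both regions. The first call was lost without control rat 3 (log2 fold change -0.83) or SE rat 6 (-0.82), and the second without control rat 5 (-0.75), SE rat 6 (-0.91) or SE rat 9 (-0.79). With the density and count offsets both were lost (-0.78 and -0.70), the first was also lost with all 10 libraries (-1.25) and the second with DESeq2 (-0.93).

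At the positions named for class III genes the values did not pass the threshold. The study lists this position, and that of Tesb, for its traumatic brain injury and pilocarpine models and not for amygdala stimulation. The values here are therefore no test of that list. At chr20:4226675-4227176 the control rats had 3.63, 3.21, 3.10 and 2.69 and the SE rats 1.85, 2.64, 0.97 and 1.72, a log2 fold change of -0.80 (standard error 0.37, edgeR adjusted p = 0.695) with every SE rat below every control rat. Its neighbour chr20:4227503-4228043 had 3.38, 2.22, 2.07 and 2.48 in control rats and 0.92, 0.96, 3.38 and 1.72 in SE rats, where rat 9 came to the level of the highest control rat (log2 fold change -0.54, standard error 0.40, edgeR adjusted p = 0.838).

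Of the regions at the position named for Tesb, chr20:4574298-4574729 had 2.18, 0.49, 1.55 and 1.65 in control rats and 3.01, 2.16, 3.38 and 2.67 in SE rats (log2 fold change 0.91, edgeR adjusted p = 0.676), with rat 8 just below rat 1. The other, chr20:4574844-4575287, was below the count filter, with 5 to 12 tags per library. The last region inside the limit of 6 Mb, chr20:5991352-5991892, had means of 3.06 ± 1.58 in control rats and 2.65 ± 1.34 in SE rats (SD, n = 4 each), and the first one outside it, chr20:5999283-6000297, had 5.63 ± 0.982 and 6.42 ± 1.57.

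The widest differences between rats in the interval did not follow the groups. Within 19.4 kb, from the start of chr20:2782856-2783295 to the end of chr20:2801726-2802273, lay 11 regions, 10 of them tested. Summed over this block, control rat 1 had a normalized count of 101, rat 3 had 0.989, rat 4 had 87.4 and rat 5 had 0.827. SE rat 6 had 28.2, rat 8 had 102, rat 9 had 2.17 and rat 10 had 97.99. In tags these were 419, 4, 338 and 4 in the control rats and 122, 424, 9 and 513 in the SE rats. Rats 3 and 5 of the control group and rat 9 of the SE group were thus close to 0, rat 6 was between, and the other 4 were close to each other.

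The regions on both sides of the block showed no such order. The 14 flanking regions between 2.74 and 2.85 Mb summed to between 32.6 and 42.3 in all 8 rats, with 33.4, 37.8, 32.6 and 32.7 in control rats 1, 3, 4 and 5 and 42.3, 42.0, 39.1 and 39.3 in SE rats 6, 8, 9 and 10. Every SE rat was thus above every control rat there. These regions include the hypermethylated chr20:2752152-2753328, which had 8.22, 5.93, 7.76 and 4.76 in control rats 1, 3, 4 and 5. In SE rats 6, 8, 9 and 10 it had 9.94, 11.5, 10.1 and 8.40. That region was called from these same values, so the order of the sums rests in part on the call and is no separate result. The discarded rats had 81.4 (rat 2) and 18.7 (rat 7) in the block, from 428 and 175 tags, and 54.6 and 11.3 in the flanking regions, so that rat 7 was low on both.

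**Figure D4:**
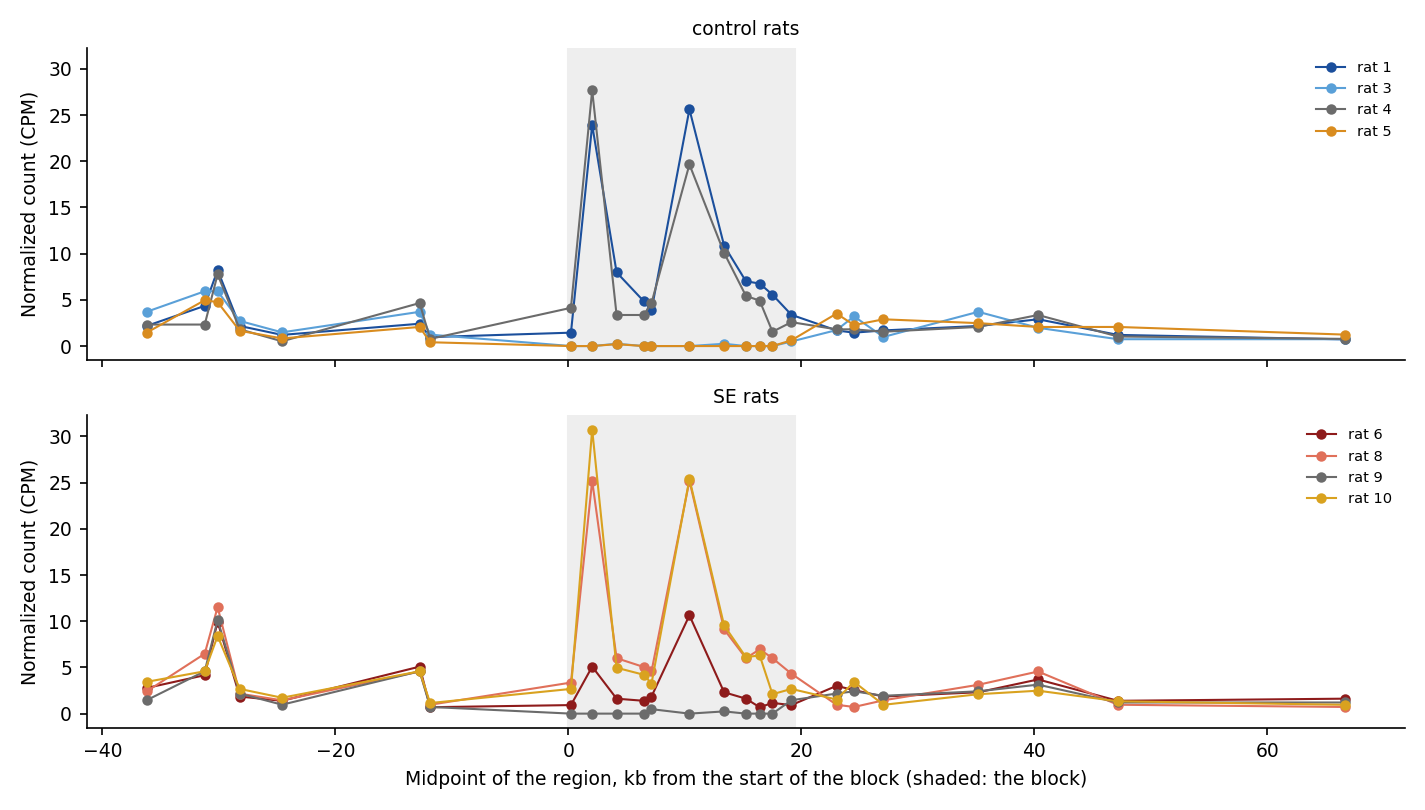
Normalized count of each region (vertical axis, CPM) by the distance of its midpoint from the start of the block in kb (horizontal axis), for control rats (top) and SE rats (bottom). Inside the shaded block of 19.4 kb the lines of rats 3, 5 and 9 stay near 0 and that of rat 6 lies between. Outside it rats 3, 5 and 9 are not set apart in this way.

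The block's largest region, chr20:2783298-2786496 with 3198 bp, had 99, 0, 107 and 0 tags in control rats 1, 3, 4 and 5 and 22, 105, 0 and 161 tags in SE rats 6, 8, 9 and 10. A count of 0 allows up to 3 tags, which is a normalized count of 0.741 in rat 3, 0.620 in rat 5 and 0.724 in rat 9, against 23.9 and 27.7 in rats 1 and 4 and 25.2 and 30.8 in rats 8 and 10. The comparison of the groups could show little at this spread (log2 fold change 0.31, standard error 0.41, edgeR adjusted p = 0.927). The second, chr20:2791779-2794713, also had 0 tags in rats 3, 5 and 9, with normalized counts of 25.6 in rat 1, 19.7 in rat 4, 10.6 in rat 6, 25.2 in rat 8 and 25.4 in rat 10 (log2 fold change 0.49, standard error 0.39, edgeR adjusted p = 0.852). Without control rat 1 that log2 fold change was 1.34 and past the threshold of p below 0.01 before adjustment, so a call there turned on which rats were included.

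The smaller regions of the block had the same order. Rats 3, 5 and 9 were the 3 lowest rats in 9 of the 10 tested regions of the block, and rats 3, 5 and 6 in the remaining one. At chr20:2789040-2789640 the normalized counts were 4.84, 0, 3.36 and 0 in control rats and 1.39, 5.04, 0 and 4.20 in SE rats. At chr20:2798899-2799655 they were 6.77, 0, 4.92 and 0 in control rats and 0.69, 6.96, 0 and 6.30 in SE rats. At chr20:2799994-2800759 they were 5.56, 0, 1.55 and 0 in control rats and 1.16, 6.0, 0 and 2.10 in SE rats, so that rats 4 and 10 were lower relative to rats 1 and 8 than in the larger regions.

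The same rats were lowest in the most strongly captured regions of the interval, further along the chromosome. Between positions 3403067 and 3614443 lay 10 regions of at least 1900 bp, which included those with the highest normalized counts of the interval. Their summed normalized counts were 356 in control rat 1, 239 in rat 3, 354 in rat 4 and 203 in rat 5, and 283 in SE rat 6, 377 in rat 8, 230.3 in rat 9 and 377 in rat 10. Rats 3, 5 and 9 were the 3 lowest in 9 of the 10, but unlike in the block they kept a large part of the level of the other rats.

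At chr20:3434516-3437771 the control rats had 47.9, 22.7, 38.5 and 21.9 and the SE rats 27.5, 45.6, 23.9 and 41.6, the means being 32.8 ± 12.6 and 34.7 ± 10.6 (SD, n = 4 each). At chr20:3412331-3414276 they had 41.8, 24.2, 51.2 and 19.7, and 35.8, 42.5, 22.9 and 47.2. In both, rats 3, 5 and 9 formed the low end and rat 6 came next, and the group means differed by less than the SD within groups (log2 fold changes 0.09 and 0.13, edgeR adjusted p = 0.952 and adjusted p = 0.924). The region with the highest mean, chr20:3523157-3525746, had 36.0, 30.6, 41.9 and 24.4 in control rats and 37.0, 45.8, 27.0 and 45.3 in SE rats (log2 fold change 0.23, standard error 0.15, edgeR adjusted p = 0.798).

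The remaining one of the 10, chr20:3403067-3405535, had the opposite order. Rats 3, 5 and 9 were its 3 highest, with 31.4, 22.7 and 23.7, while rats 1, 4 and 10 were its lowest with 15.7, 16.0 and 17.6 and rats 6 and 8 both had 19.0. Of the 3 longest regions of the interval, chr20:3609991-3614443 with 4452 bp belonged to these 10 and had 43.5, 19.8, 37.0 and 19.4 in control rats and 25.7, 36.7, 20.0 and 46.2 in SE rats. The longest, chr20:4084379-4089283 with 4904 bp, had 22.5, 18.3, 19.9 and 18.6 in control rats and 24.3, 24.01, 20.3 and 24.3 in SE rats, and chr20:4027051-4030908 with 3857 bp had 22.0, 15.3, 15.01 and 15.3, and 19.9, 19.7, 21.7 and 15.7. Neither had rats 3, 5 and 9 as its 3 lowest.

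Over all 964 tested regions the 3 lowest were most often rats 3, 4 and 5, in 59 (6.12%), while rats 3, 5 and 9 were the 3 lowest in 45 (4.67%). Between 2.5 and 4 Mb rats 3, 5 and 9 were the most frequent set, with 29 of 267 (10.9%). These 29 include the 9 regions of the block and the 9 wide regions already given for this order. On the rest of chromosome 20 the most frequent set was rats 3, 4 and 5 with 209 of 7812 regions (2.68%), and these, all control rats, were also the most frequent set from 4 Mb on, with 40 of 537 (7.45%). In 3 regions of the interval a single rat had 0 tags while each of the other 7 had at least 5, and the rat with 0 was again rat 3 (chr20:3311753-3312335), rat 5 (chr20:3026206-3026631) or rat 9 (chr20:5722187-5722549), once each.

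The spread between rats of a group was given by edgeR's tagwise dispersion, which had similar medians in the interval and elsewhere in most classes of mean count. edgeR draws each region's value toward the trend of dispersion on mean count. Medians alike within a class are therefore partly built in and do not show that the spread was ordinary. The median dispersion was 0.0341 over the 964 tested regions, 0.0381 on the rest of chromosome 20 and 0.0391 over all tested regions. In regions with fewer than 12 tags per library on average the medians were 0.0441 and 0.0443 in the interval and on the rest of the chromosome, from 12 to 20 tags 0.0326 and 0.0331, and from 20 to 50 tags 0.0212 and 0.0218. With 50 tags or more the median was 0.0199 and the 90th percentile 0.0348 in the interval (35 regions), against 0.0170 and 0.0215 on the rest of the chromosome (23 regions). A dispersion above 0.1 was found in 15 of the 291987 tested regions of the table, and 9 of these were in the interval, all within the block, with 0 on the rest of chromosome 20. The highest was 0.212, at chr20:2783298-2786496. At least 3 of the 8 rats had 0 tags in 9 tested regions of the table, and 6 of these 9 were in the interval.

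**Figure D5:**
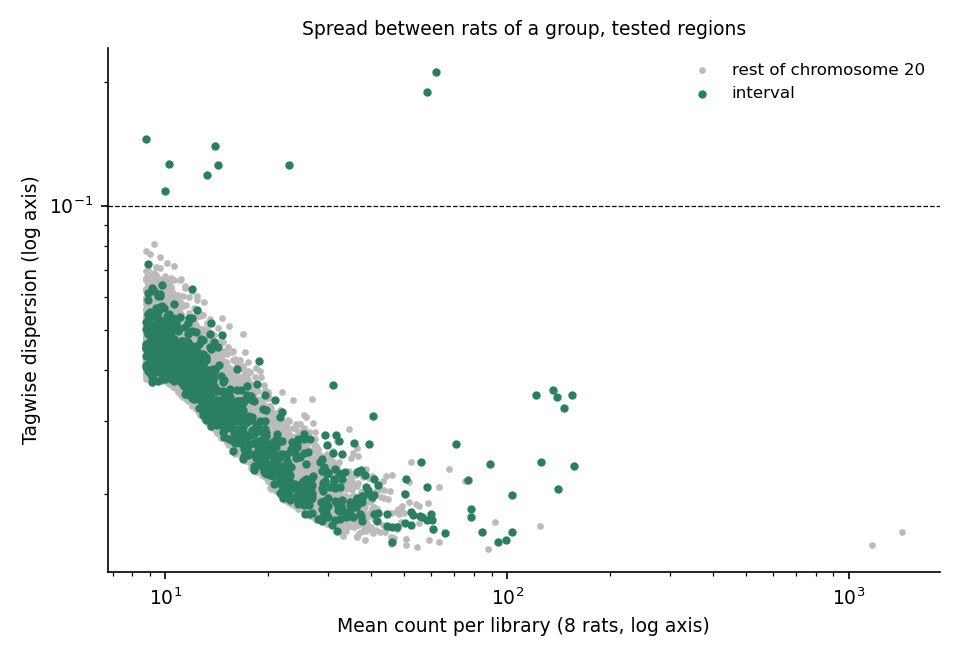
Tagwise dispersion (vertical axis, log scale) against the mean count per library of the 8 rats (horizontal axis, log scale) for tested regions of the interval (green) and of the rest of chromosome 20 (grey). The dashed line marks a dispersion of 0.1, above which lie 9 regions of the interval and 0 of the rest of the chromosome.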

How the data were processed

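DNA of each rat was fragmented, captured by the MethylMiner protocol and sequenced by the authors. Alignment was to RN4 with BWA. Each pair of libraries was compared with MACS, differing regions were joined with BEDTools, and duplicates were taken out. The authors deposited raw tag counts per region and library. By this construction a region is in the table because MACS found a difference there between some pair of rats, so regions alike in all rats are under-represented. How tags that match several places were handled is not given in the sources used here, so counts in regions inside near-identical RT1 gene copies are uncertain, and their part in the results was not tested. No genome or annotation of RN4 was used here, and region length was taken as end minus start.

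Members of the interval were taken by position alone. The members, the comparisons and the rule for named regions were chosen with earlier results of these data known. Counts of the 8 libraries not labelled discarded were filtered at the 50th percentile of the summed count, normalized by TMM and tested over all 291987 remaining regions by edgeR (version 4.0.16, in R 4.3.3) with its two-sided quasi-likelihood F test, with p below 0.01 before adjustment as the threshold and Benjamini-Hochberg adjustment over all tested regions. The standard error of a log2 fold change is its size divided by the square root of F. Normalized counts are tags per 1000000 tags of tested regions, scaled by TMM (factor 1 for the discarded rats). Exact two-sided permutation tests over rats served for shares, ratios and windows (scipy 1.17.1). For the density slope, the log2 normalized count of a library (prior count 2) minus the 8-library mean was regressed on log2(density + 1). Intervals of counts cover counting error only, and a region of 14 tags per library is imprecise whatever the library total.

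Named were the 10 tested regions with the smallest p, the 3 with the highest mean, the 3 longest, the 5 with the largest dispersion, those at gene positions named by the study, those beside the 6 Mb limit, and those with 0 tags in 1 rat and 5 or more in the other 7. The block, the wide regions and the surroundings of chr20:5632932-5633957 were singled out after their values were seen. No pair of libraries agreed within sampling noise (smallest chi-square per degree of freedom 1.27). Alternatives were the exact test of edgeR, DESeq2's Wald test (version 1.42.0), scaling by library totals, upper quartiles or loess (limma version 3.58.1), no filter, a minimum of 10 counts in each library, inclusion of the discarded rats, leaving out single rats, other window widths and, added after the data were seen, offsets on local density and the interval without 2.5 to 4 Mb.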

Additional observations from a re-analysis of the deposited data

Results flagged for a closer look

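Among 94 sets of 4 rats (the named regions and the shares, each group separately), 4 had a rat whose gap to the nearest other rat was larger, relative to the range of its group, than the 95% critical value of Dixon's test allows. Chance alone flags about 1 in 20 such sets, so this number is not beyond it. At chr20:3751855-3752377 control rat 5 had a normalized count of 0.414, with the other control rats between 1.55 and 1.73. At chr20:5637972-5638713 SE rat 6 had 11.1, with the other SE rats between 5.52 and 6.30. At chr20:4084379-4089283 SE rat 9 had 20.28, with the others between 24.01 and 24.3. At chr20:4027051-4030908 control rat 1 had 22.0, with the others between 15.01 and 15.3. The first pair are called regions, and their values without these rats stand in the report.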

How the results depend on the processing

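Hypomethylated and hypermethylated calls of the interval, 4 and 14 in the report, were 1 and 5 with DESeq2, 9 and 24 with no region filter (1648 regions tested), 2 and 6 with at least 10 counts in every library (393 regions tested), 1 and 2 with all 10 libraries and 1 and 7 with density and count offsets. Leaving out 1 rat gave 2 to 5 and 7 to 20, with 2 hypomethylated calls without SE rat 6, 8 hypermethylated calls without control rat 3 and without control rat 5, and 7 without SE rat 10. The share of hypermethylated calls in the interval against the table was 0.519% against 0.139% with DESeq2, 1.46% against 0.525% with no filter, 1.53% against 0.618% with the stricter filter, 0.201% against 0.282% with all 10 libraries, 0.726% against 0.563% with the offsets, 0.82% against 0.557% without control rat 3, 0.811% against 0.508% without control rat 5 and 0.74% against 0.538% without SE rat 10. That of hypomethylated calls was below the table's in each of these. The exact test of edgeR, library totals, upper-quartile factors and loess offsets gave 4 or 5 and 12 to 14. No setting gave an adjusted p below 0.05. Apart from the counts of regions tested, the cause of these changes was not tested. The median log2 fold change was 0.085 with all 10 libraries and otherwise 0.10 to 0.16. The median dispersion was 0.0176 with at least 10 counts in every library and 0.0910 with all 10 libraries. Without 2.5 to 4 Mb the share differed by 0.0236 percentage points and the ratio to the rest of chromosome 20 by 0.685 tags per 100, both with an exact permutation p of 0.0286, the smallest that 4 against 4 rats allow. Leaving out 1 rat moved the share difference between 0.0304 and 0.0481 percentage points and the ratio difference between 0.868 and 1.45. Windows with a p below 0.05, 3 in the report, were 1 with all 10 libraries, 0 at 1 Mb and 5 at 250 kb. The log2 ratio of tags per kb, 0.08 in the report, was 0.0902 over tested regions (exact sign-flip p = 0.0313), -0.0016 as a median over regions, and 0.0630 to 0.0963 with 1 rat left out, with p = 0.0469 without control rat 3 or control rat 5. Of 426 refits of the 27 named tested regions, 397 kept the direction. No paired analysis was possible because no number is used for both a control and an SE rat. Depth limits single regions, most of which held fewer than 20 tags per library.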
